A study of Mus musculus with 9 samples.

Results

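The genes described here are those of the hard and soft keratins of the hair follicle with their partners: the keratins of the inner root sheath and of the hair shaft, trichohyalin and its relative trichohyalin-like 1, the deiminating enzyme Padi3, and the shaft genes Dsg4, S100a3, Gprc5d and Crym. They were picked out of the table by gene symbol, from a list drawn up with earlier results of these data known. Of 31 listed symbols, 30 had a row in the deposited table of 57180 genes, and the remaining symbol was not analysed here. Krt74 stood under 2 identifiers, which makes 31 rows. Of these, 30 rows passed the filter on low counts and were tested, while Krt84, at 1 to 8 counts in each library, was left out.

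The study measured RNA in dorsal skin of balb/c-nude mice, in 9 libraries of total RNA made in 1 labelled batch. Mice of the UVB-hCOL3A1 group (3 libraries) were irradiated with ultraviolet B and given hCOL3A1, which the series title describes as messenger RNA for type III collagen. UVB-Saline mice (3 libraries) were irradiated and given saline. NoUVB mice (3 libraries) were not irradiated, and no saline or mRNA is named for them, so irradiation and the saline treatment cannot be told apart. Irradiation was given every other day for 8 weeks, beginning at 60 mJ/cm² (1 minimal erythemal dose) and ending at 240 mJ/cm² (4 doses), with collection stated for day 28. From which event day 28 is counted is not stated, so the time between the last irradiation and collection is not known. The labels state neither age nor route nor whether animals were pooled. The labels do not say that libraries of a group came from separate animals, so the p-values measure the spread between these libraries, which may be technical.

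A hair is built in concentric layers by cells that leave the matrix of the growing follicle. The inner root sheath is a rigid tube that moulds the shaft. Its cells make the keratins Krt25 to Krt28 (type I) and Krt71 to Krt74 (type II), which pair as heteropolymers, and trichohyalin, a granule protein that peptidylarginine deiminases modify and that cross-links the keratin filaments. The shaft is filled with the hair keratins, Krt31 to Krt40 (type I) and Krt81 to Krt86 (type II), embedded in keratin-associated proteins. These genes are read out during the growth phase and are low in resting follicles. All 3 groups are nude mice, a strain known for a loss of function of the transcription factor Foxn1; their follicles grow but form bent, fragile shafts that rarely emerge. The labels do not give the allele.

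Libraries held 7640172 to 12927411 estimated counts. The ribosomal gene Rn18s-rs5 took 7.71% of NoUVB 2 and 34.3% to 55.3% of the other 8, and without it 4274106 to 7402229 counts remained. The skin keratins Krt5 and Krt14 stood at 895 to 1530 and 673 to 2296 CPM (each library's counts relative to its total, scaled by TMM) and the epidermal keratin Krt10 at 1037 to 2441 CPM. UVB-Saline 3 and UVB-hCOL3A1 3 stood apart from the rest on the first principal component of all genes, which held 31.6% of the variance, with scores of 55.0 and 39.8 against -33.5 to 10.05 for the other 7. Several values below move with them. The medians, the counts of negative and of non-overlapping rows, and the differences of some leading genes are therefore given with and without them.

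To show the regulatory sequence that genes of the inner root sheath and of the shaft carry in front of their start, 6 promoters are printed, each the 250 bases before the annotated start, on the gene's own strand. They are those of the most abundant genes of the inner root sheath (Tchh, Krt25 and Krt71) and of neighbouring shaft keratins (Krt31, Krt33b and Krt34), from RefSeq on build GRCm38.p6, a build other than that of the counts. Capitals mark 3 sets of letters: TATAAA, the TATA box; CTTTGAA, a motif of the LEF and TCF factors of Wnt signalling; and GACGC, a motif of FOXN1. Each was searched on both strands, and one found on the other strand stands as its complement.
Tchh (chr3:93442080-93442329, plus strand): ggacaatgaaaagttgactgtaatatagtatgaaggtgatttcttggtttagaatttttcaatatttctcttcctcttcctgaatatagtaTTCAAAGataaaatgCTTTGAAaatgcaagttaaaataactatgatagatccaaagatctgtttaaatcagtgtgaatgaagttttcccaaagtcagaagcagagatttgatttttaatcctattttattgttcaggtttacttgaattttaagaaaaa
Krt25 (chr11:99322952-99323201, minus strand): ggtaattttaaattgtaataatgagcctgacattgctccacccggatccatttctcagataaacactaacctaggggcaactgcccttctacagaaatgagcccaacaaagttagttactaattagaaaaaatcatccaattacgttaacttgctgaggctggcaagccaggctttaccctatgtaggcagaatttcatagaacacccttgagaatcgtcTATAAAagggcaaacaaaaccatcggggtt
Krt71 (chr15:101743098-101743347, minus strand): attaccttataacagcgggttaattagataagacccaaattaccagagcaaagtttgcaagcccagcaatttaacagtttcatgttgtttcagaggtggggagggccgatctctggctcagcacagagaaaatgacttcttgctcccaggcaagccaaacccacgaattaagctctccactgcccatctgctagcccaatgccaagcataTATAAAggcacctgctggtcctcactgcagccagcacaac
Krt31 (chr11:100050552-100050801, minus strand): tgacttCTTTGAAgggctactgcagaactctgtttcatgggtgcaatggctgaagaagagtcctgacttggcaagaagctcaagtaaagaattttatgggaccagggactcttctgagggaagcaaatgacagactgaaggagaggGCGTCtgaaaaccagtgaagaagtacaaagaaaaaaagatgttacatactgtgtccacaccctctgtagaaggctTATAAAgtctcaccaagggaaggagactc
Krt33b (chr11:100029869-100030118, minus strand): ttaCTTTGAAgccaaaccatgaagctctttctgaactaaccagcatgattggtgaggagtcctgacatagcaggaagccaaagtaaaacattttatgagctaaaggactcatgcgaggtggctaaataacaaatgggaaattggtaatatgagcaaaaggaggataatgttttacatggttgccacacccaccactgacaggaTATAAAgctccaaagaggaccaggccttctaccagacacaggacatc
Krt34 (chr11:100041555-100041804, minus strand): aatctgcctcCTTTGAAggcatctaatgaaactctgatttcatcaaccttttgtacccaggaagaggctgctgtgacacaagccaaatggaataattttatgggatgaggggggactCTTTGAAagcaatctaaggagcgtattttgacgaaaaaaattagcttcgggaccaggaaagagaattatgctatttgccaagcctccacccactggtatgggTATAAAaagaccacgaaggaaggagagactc
In Krt25, Krt71, Krt31, Krt33b and Krt34 the TATA letters began 29 to 47 bases before the start, and Tchh had none in its window. Windows of 300 bases (250 before and 50 after the start) were at hand for 22 of the genes, as 25 windows. TATAAA occurred in 15 of the 25, and in 13 of the 17 keratin windows, against 13.6% of 32851 windows of all genes. CTTTGAA occurred in 7 of the 25, against 5.14% of all, and these were Krt28, Krt31, Krt32, Krt33b, Krt34, Krt39 and Tchh. The related letters CTTTGAT occurred in 1 of the 25, a window of S100a3, against 3.73% of all, and GACGC in 3 of the 25 (Krt27, Krt31 and S100a3), against 27.2%. The 3 printed shaft promoters, of genes that lie side by side on chromosome 11, each carried both a TATA box and at least 1 CTTTGAA. A match is a description of these letters and does not show a bound site.

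Taken per kilobase of exon (annotation of GENCODE M21, 30 rows with a length), Tchh had the highest level in NoUVB skin, at 1083 ± 345 CPM per kilobase (SD, n = 3). Krt71 followed with 599 ± 178, Krt25 with 341 ± 107 and Krt27 with 285 ± 84.8 CPM per kilobase in NoUVB. From Tchh down to Krt27, the ranges of neighbouring genes overlapped over the 3 NoUVB libraries, and all 4 were highest in NoUVB 1 and lowest in NoUVB 3. Within each NoUVB library their order was the same. They had 1401, 730, 434 and 353 CPM per kilobase in NoUVB 1, and 716, 396, 224 and 190 in NoUVB 3. Krt73 came next with 55.4 ± 13.7 CPM per kilobase in NoUVB, below the range of Krt27. The shaft keratins were far below the genes just named. Krt31, the highest of the shaft, had 24.5 ± 5.05 CPM per kilobase, Krt86 7.44 ± 1.02, and Krt84, the lowest, 0.22 ± 0.09 CPM per kilobase in NoUVB. Not every sheath keratin exceeded the shaft, as Krt26 had 23.1 ± 4.41 and the Krt74 row with a length 0.49 ± 0.35 CPM per kilobase in NoUVB. The 4 leading genes are all known from the inner root sheath. The genes lie mostly in the 2 keratin clusters, with 13 rows on chromosome 11 and 10 on chromosome 15.

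All members together made up 1.09%, 1.12% and 0.447% of the counts other than Rn18s-rs5 in UVB-hCOL3A1 libraries 1, 2 and 3. In UVB-Saline they made up 1.58%, 0.998% and 0.206%, and in NoUVB 2.02%, 1.64% and 1.01%. Counting error is small beside these gaps: the Wilson 95% interval was 0.202% to 0.210% in UVB-Saline 3 and 2.01% to 2.04% in NoUVB 1, and it covers counting error only. UVB-hCOL3A1 3 and UVB-Saline 3 were thus the 2 lowest libraries. By this share, UVB-hCOL3A1 1, UVB-hCOL3A1 2 and UVB-Saline 1 lay within the NoUVB range, and UVB-Saline 2 just below it. The placing depended on the scale. As summed TMM-scaled CPM, the 30 tested rows had 6167, 6573 and 2676 in UVB-hCOL3A1 and 9463, 5806 and 1316 in UVB-Saline. In NoUVB they had 12290, 10336 and 6517. On that scale UVB-hCOL3A1 1 lay below the NoUVB range and UVB-hCOL3A1 2 just inside it. Tchh alone gave 56.7% to 66.4% of the members' counts. In skin as a whole, fewer follicle cells and less RNA per cell cannot be told apart.

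**Figure D1:**
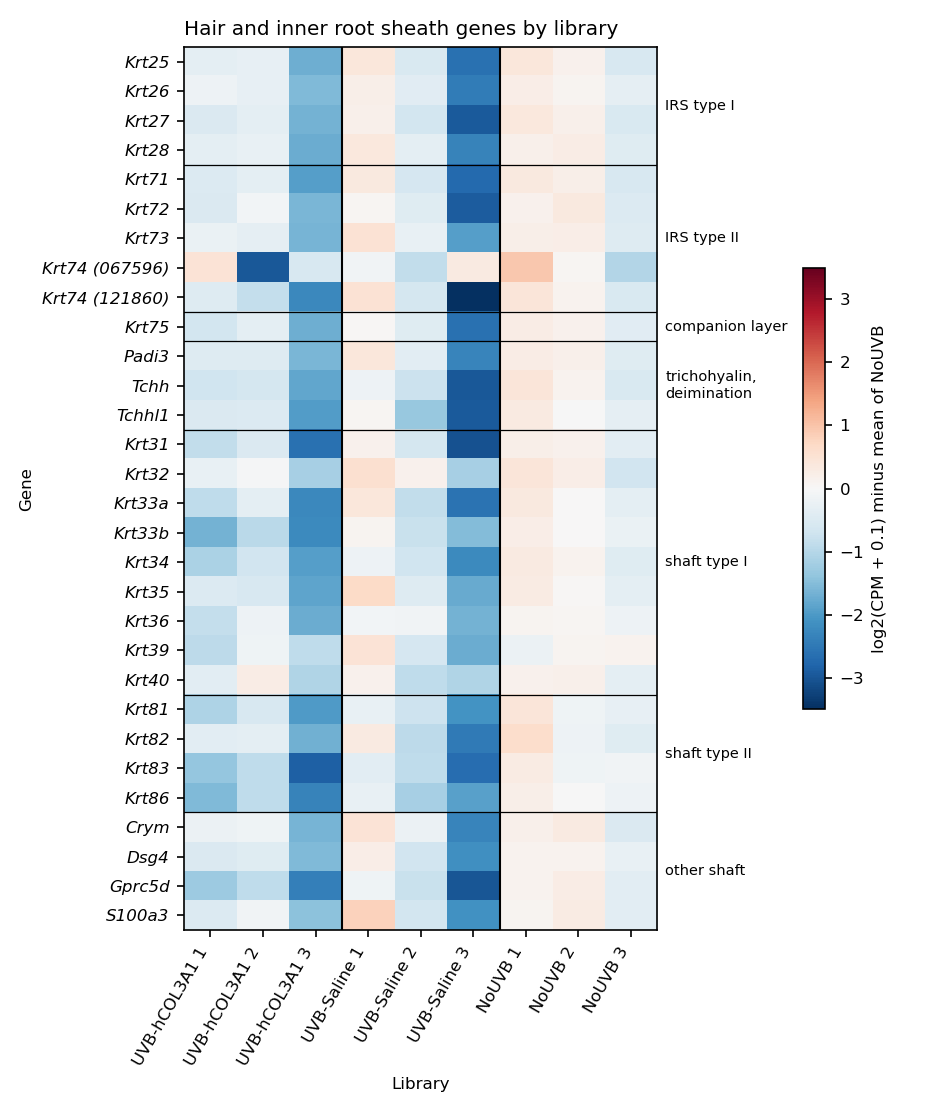
Level of each tested gene (rows, grouped by role; IRS is the inner root sheath) in each library (columns), as log2(CPM + 0.1) minus the mean of the 3 NoUVB libraries; blue is lower, red higher, and the scale ends at 3.5. The columns UVB-hCOL3A1 3 and UVB-Saline 3 are the darkest blue, and UVB-Saline 1 resembles NoUVB 1 and NoUVB 2; the digits after Krt74 end its identifiers.

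The type I keratins of the inner root sheath were lower on average in both irradiated groups than in NoUVB, by a median log2 difference of -0.52 in UVB-Saline and -0.69 in UVB-hCOL3A1, and none passed the test. Krt25 had 514, 534 and 201 CPM in UVB-hCOL3A1, 865, 451 and 106 CPM in UVB-Saline, and 864, 723 and 445 CPM in NoUVB. Its UVB-Saline libraries spanned the NoUVB range and went far below it, so the groups overlapped. The log2 difference of Krt25 was -0.70 ± 0.72 (SE) between UVB-hCOL3A1 and NoUVB, with an edgeR adjusted p of 0.754, and -0.52 ± 0.71 between UVB-Saline and NoUVB, with an edgeR adjusted p of 0.864. Without UVB-Saline 3 and UVB-hCOL3A1 3 these Krt25 differences were -0.36 and -0.05, and without UVB-Saline 1 the difference between UVB-Saline and NoUVB was -1.28. Krt27 had 301, 334 and 137 CPM in UVB-hCOL3A1, 483, 274 and 55.6 CPM in UVB-Saline, and 547, 483 and 295 CPM in NoUVB. Krt28 had 68.9, 72.7 and 25.9 CPM in UVB-hCOL3A1, 112, 69.4 and 17.1 CPM in UVB-Saline, and 98.0, 104 and 65.0 CPM in NoUVB. Krt26 had 73.7, 68.9 and 28.7 CPM in UVB-hCOL3A1, 96.7, 63.6 and 15.4 CPM in UVB-Saline, and 98.4, 89.2 and 66.9 CPM in NoUVB. These 3 showed the shape of Krt25: library 3 was lowest in every group, and UVB-hCOL3A1 1 and 2 differed little from each other.

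Their type II partners gave the same picture, with medians of -0.56 in UVB-Saline and -0.65 in UVB-hCOL3A1 against NoUVB. Krt71, mutated in the mouse Caracul coat lines, had 912, 1007 and 335 CPM in UVB-hCOL3A1, 1597, 838 and 193 CPM in UVB-Saline, and 1597, 1467 and 865 CPM in NoUVB. UVB-Saline 1 matched the highest NoUVB library to the nearest CPM, and UVB-Saline 3 was lowest of all 9. The log2 difference of Krt71 was -0.80 ± 0.73 between UVB-hCOL3A1 and NoUVB (edgeR adjusted p 0.722), and -0.43 without UVB-Saline 3 and UVB-hCOL3A1 3. Krt73 had 98.9, 93.9 and 38.0 CPM in UVB-hCOL3A1, 166, 97.1 and 30.6 CPM in UVB-Saline, and 135, 139 and 85.8 CPM in NoUVB. Krt72 had 58.9, 77.3 and 27.4 CPM in UVB-hCOL3A1, 87.8, 62.6 and 11.1 CPM in UVB-Saline, and 91.8, 106 and 59.3 CPM in NoUVB. UVB-hCOL3A1 1 and 2 lay inside the NoUVB range for Krt73, and UVB-hCOL3A1 2 did so for Krt72. The Krt74 row ENSMUSG00000121860 had 1.75, 1.32 and 0.43 CPM in UVB-hCOL3A1, 3.49, 1.56 and 0 CPM in UVB-Saline, and 3.27, 2.68 and 1.64 CPM in NoUVB. The other Krt74 row stayed at 0 to 1.42 CPM, and reads of the 2 rows may have been split between them. Krt75, the keratin of the companion layer that lies around the inner root sheath, had 46.7, 57.5 and 22.1 CPM in UVB-hCOL3A1, 74.1, 53.9 and 11.8 CPM in UVB-Saline, and 86.4, 80.9 and 54.5 CPM in NoUVB. Its groups overlapped as well.

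Tchh, Tchhl1 and Padi3 were each lower in every UVB-hCOL3A1 library than in any NoUVB library, by narrow gaps for Tchh and Padi3, and none passed the test. Tchh had 3772, 3956 and 1721 CPM in UVB-hCOL3A1, 5368, 3578 and 774 CPM in UVB-Saline, and 8157, 6594 and 4172 CPM in NoUVB. Each UVB-hCOL3A1 library lay below each NoUVB library, by a small gap between 3956 and 4172 CPM, and UVB-Saline overlapped both. The log2 difference of Tchh was -1.002 ± 0.67 between UVB-hCOL3A1 and NoUVB (edgeR adjusted p 0.615) and -0.96 ± 0.66 between UVB-Saline and NoUVB (edgeR adjusted p 0.706). Between UVB-hCOL3A1 and UVB-Saline it was -0.04 ± 0.66 (edgeR adjusted p 0.990). Without UVB-Saline 3 and UVB-hCOL3A1 3 these 3 Tchh differences were -0.69, -0.50 and -0.19. Tchhl1, a trichohyalin-like gene, had 52.6, 54.5 and 19.4 CPM in UVB-hCOL3A1, 79.2, 29.9 and 9.76 CPM in UVB-Saline, and 94.2, 74.6 and 60.7 CPM in NoUVB. Padi3, which converts arginines of trichohyalin to citrulline, had 49.9, 50.4 and 22.8 CPM in UVB-hCOL3A1, 90.4, 53.1 and 13.7 CPM in UVB-Saline, and 81.7, 77.4 and 51.5 CPM in NoUVB. For Padi3 too the groups UVB-hCOL3A1 and NoUVB came close, at 50.4 and 51.5 CPM, and UVB-Saline 1 was the highest of the 9 libraries.

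Among the shaft keratins the median log2 difference between UVB-hCOL3A1 and NoUVB was -0.85 for type I and -1.298 for type II, and again none passed the test. Krt35, one of the first keratins made in the shaft, had 30.4, 28.9 and 11.7 CPM in UVB-hCOL3A1, 67.6, 31.2 and 12.5 CPM in UVB-Saline, and 51.6, 43.8 and 33.4 CPM in NoUVB. Its UVB-hCOL3A1 libraries were all below NoUVB, while UVB-Saline held both a library above every NoUVB one and 2 below. Krt31, a keratin of the cortex, had 20.8, 27.0 and 6.15 CPM in UVB-hCOL3A1, 42.1, 24.9 and 4.55 CPM in UVB-Saline, and 44.0, 42.8 and 29.6 CPM in NoUVB. Its log2 difference between UVB-hCOL3A1 and NoUVB was -1.10 ± 0.75 (edgeR adjusted p 0.624), with no overlap, and -0.68 without UVB-Saline 3 and UVB-hCOL3A1 3. Krt33a had 18.8, 27.7 and 7.34 CPM in UVB-hCOL3A1, 46.3, 19.5 and 5.85 CPM in UVB-Saline, and 44.5, 35.5 and 27.8 CPM in NoUVB. The highest UVB-hCOL3A1 and the lowest NoUVB library of Krt33a thus all but met. Krt34 had 14.5, 19.6 and 8.10 CPM in UVB-hCOL3A1, 27.6, 19.1 and 6.61 CPM in UVB-Saline, and 38.3, 34.0 and 23.0 CPM in NoUVB. Its log2 difference between UVB-hCOL3A1 and NoUVB was -1.17 ± 0.50 (edgeR adjusted p 0.419). Krt33b, named for its value, had 1.68, 2.82 and 1.08 CPM in UVB-hCOL3A1, 5.85, 3.12 and 1.84 CPM in UVB-Saline, and 6.39, 5.54 and 4.62 CPM in NoUVB. It had the widest log2 difference of all tested members between UVB-hCOL3A1 and NoUVB, -1.55 ± 0.43, with the lowest adjusted p among them (edgeR, 0.206). Without UVB-Saline 3 and UVB-hCOL3A1 3 the difference was -1.28 for Krt33b and -0.88 for Krt34. Krt36, Krt32, Krt39 and Krt40 had group means of 0.69 to 5.70 CPM.

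The type II shaft keratins pair with these in the cortex and cuticle. Krt86 had 4.96, 7.81 and 2.81 CPM in UVB-hCOL3A1, 12.1, 6.49 and 3.79 CPM in UVB-Saline, and 16.8, 14.3 and 12.8 CPM in NoUVB. All 6 irradiated libraries were below all 3 NoUVB libraries. The log2 difference of Krt86 was -1.48 ± 0.43 between UVB-hCOL3A1 and NoUVB (edgeR adjusted p 0.243) and -0.96 ± 0.42 between UVB-Saline and NoUVB (edgeR adjusted p 0.521). Krt83 had 7.24, 10.1 and 2.48 CPM in UVB-hCOL3A1, 14.5, 10.03 and 2.82 CPM in UVB-Saline, and 22.6, 16.7 and 17.0 CPM in NoUVB. It too was below NoUVB in all 6 irradiated libraries, with log2 differences of -1.48 ± 0.58 in UVB-hCOL3A1 (edgeR adjusted p 0.379) and -1.03 ± 0.57 in UVB-Saline (edgeR adjusted p 0.628). Without UVB-Saline 3 and UVB-hCOL3A1 3, the differences of UVB-hCOL3A1 and UVB-Saline from NoUVB were -1.18 and -0.66 for Krt86 and -1.10 and -0.62 for Krt83. Krt81 had 11.8, 16.9 and 6.26 CPM in UVB-hCOL3A1, 20.7, 15.2 and 5.85 CPM in UVB-Saline, and 33.5, 22.7 and 20.7 CPM in NoUVB. For Krt81, UVB-Saline 1 just reached the level of NoUVB 3. Krt82, a keratin of the shaft cuticle, had 6.86, 6.96 and 2.698 CPM in UVB-hCOL3A1, 11.1, 4.60 and 1.52 CPM in UVB-Saline, and 13.5, 7.86 and 6.54 CPM in NoUVB, and its groups overlapped. The counts of Krt33a, Krt33b, Krt34, Krt35, Krt81, Krt83 and Krt86 were not whole numbers in 9 of 9 libraries. This was not particular to the shaft keratins. It also held in 9 libraries for Tchh, Krt27 and Krt28, and in 8 for Krt25 and Krt31. Near-identical hair keratins share reads in estimates of this kind, so the split between them is uncertain.

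The other shaft genes divided. Dsg4, the desmosomal cadherin of the shaft, had 43.2, 45.9 and 21.2 CPM in UVB-hCOL3A1, 71.9, 38.2 and 13.8 CPM in UVB-Saline, and 67.0, 67.0 and 51.7 CPM in NoUVB. Gprc5d, a receptor of the hair-forming cells, had 9.91, 13.1 and 4.53 CPM in UVB-hCOL3A1, 21.7, 14.1 and 2.93 CPM in UVB-Saline, and 26.1, 28.7 and 18.8 CPM in NoUVB. Both were lower in every UVB-hCOL3A1 library than in any NoUVB library, with log2 differences of -0.75 ± 0.55 for Dsg4 (edgeR adjusted p 0.647) and -1.41 ± 0.63 for Gprc5d (edgeR adjusted p 0.437). Without UVB-Saline 3 and UVB-hCOL3A1 3 these were -0.46 and -1.08. S100a3, a calcium-binding protein of the cuticle, had 26.2, 33.7 and 13.5 CPM in UVB-hCOL3A1, 63.4, 23.5 and 8.35 CPM in UVB-Saline, and 38.8, 44.4 and 28.1 CPM in NoUVB. Crym, a thyroid hormone binding protein, had 11.5, 12.04 and 4.21 CPM in UVB-hCOL3A1, 18.7, 11.5 and 2.602 CPM in UVB-Saline, and 15.2, 16.4 and 9.43 CPM in NoUVB. In S100a3 and Crym, UVB-Saline 1 was the highest of all libraries and the groups overlapped.

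**Figure D2:**
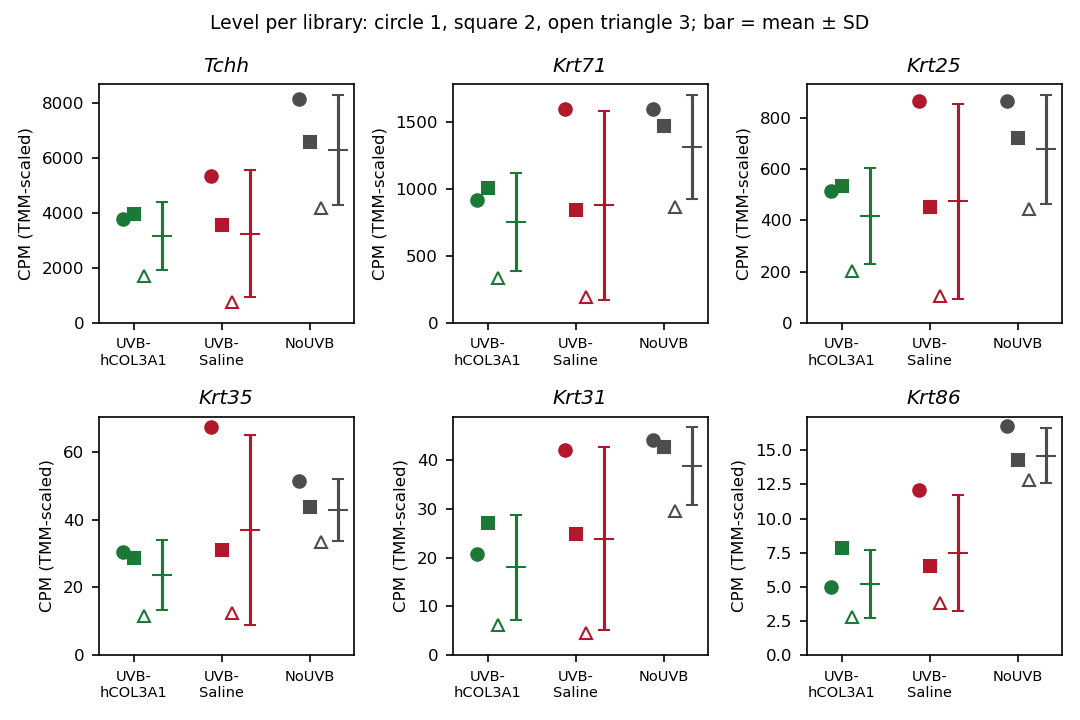
CPM of 6 genes in each library (circle, library 1; square, library 2; open triangle, library 3), with the mean and SD of each group to the right (n = 3). Library 3 is the lowest of its group in all 6 panels, and Krt86 has 12.8 to 16.8 CPM in NoUVB, above every irradiated library.

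Between UVB-Saline and NoUVB, no member passed edgeR's test at an adjusted p of 0.05, where 0.0175% of the 17168 genes tested did (3 genes, all lower). DESeq2 and limma voom also called 0 of the members here. At an unadjusted p under 0.05, 1 of 30 was lower, Krt86, against 4.6% of all genes. This count was 9 without UVB-Saline 1 and 0 without any 1 of UVB-Saline 2, UVB-Saline 3, UVB-hCOL3A1 1 or a NoUVB library. The share of all genes at that p is not given for these fits. Without UVB-Saline 1, adjusted calls over all genes were 7 higher and 5 lower. All 30 had a negative log2 difference, against 48.2% of all genes, with a median of -0.58 and a range of -1.03 to -0.03; the median of all genes was 0.01. Only Krt83 and Krt86, 2 of 30 (6.67%), had groups that did not overlap, a share near the 6.61% of all genes that were lower without overlap. The median rested on the library UVB-Saline 3: without it the median was -0.19 and 23 of 30 were negative, and without UVB-Saline 1 it was -1.22.

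Between UVB-hCOL3A1 and UVB-Saline, no member passed (edgeR), nor did any gene (0% of 17168), and DESeq2 and limma voom called 0 of the members. No member reached an unadjusted p under 0.05 in the lower direction, against 5.32% of all genes. The median log2 difference was -0.26 (all genes, -0.02), 27 of 30 were negative (all genes, 53.9%), and 0 of 30 were lower without overlap, against 8.33% of all genes. The direction turned with the library left out: the median was 0.37 without UVB-Saline 1, 0.01 without UVB-hCOL3A1 3, -0.52 without UVB-hCOL3A1 2 and -0.67 without UVB-Saline 3. Given this spread, no direction is read for UVB-hCOL3A1 against UVB-Saline. Krt33b had the smallest p, with a log2 difference of -0.94 ± 0.44 (edgeR adjusted p 0.455). This comparison shares the UVB-Saline libraries with that of UVB-Saline against NoUVB, and both comparisons with NoUVB share its libraries, so they are not independent.

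Between UVB-hCOL3A1 and NoUVB, no member passed in edgeR, where 0.0408% of all genes did (7 genes, all higher). At an unadjusted p under 0.05, 5 of 30 (16.7%) were lower, against 5.52% of all genes: Krt33b, Krt34, Krt81, Krt83 and Krt86. The median log2 difference was -0.79 (all genes, -0.01) and all 30 were negative (all genes, 50.8%). In 14 of 30 (46.7%) the groups did not overlap, against 10.7% of all genes in that direction. The 14 were 9 of the 13 shaft keratins, all 3 of Tchh, Tchhl1 and Padi3, Dsg4 and Gprc5d, and none of the 9 inner root sheath keratin rows. Whether shaft and sheath differ in this was not tested by a fit, but the values per library can be set side by side. The mean log2 level of the 13 shaft keratins, relative to NoUVB, minus that of the 9 sheath keratins was -0.59, 0.11 and -0.26 in UVB-hCOL3A1, -0.14, -0.14 and 0.44 in UVB-Saline, and -0.09, -0.15 and 0.24 in NoUVB. By these means the 3 groups overlapped, at -0.25 ± 0.35 (SD, n = 3) in UVB-hCOL3A1 and 0.05 ± 0.33 in UVB-Saline. The 0.11 of UVB-hCOL3A1 2 and the 0.44 of UVB-Saline 3 each include a Krt74 row at 0 counts in that library. As medians over the rows, the shaft stood at -0.87, -0.50 and -1.92 in UVB-hCOL3A1 and the sheath at -0.35, -0.32 and -1.64. The shaft median was thus below the sheath median in all 3. In UVB-Saline and in NoUVB it was below in libraries 1 and 2 and above in library 3.

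Calls in this comparison depended on the method. DESeq2 called 1 member lower, Krt86 (adjusted p 0.0375), where it called 0.566% of all genes lower. An edgeR fit to only these 2 groups called 2, Krt33b (adjusted p 0.0294) and Krt86 (adjusted p 0.0472), where 0.752% of all genes were lower, and limma voom called 0. Scaling by library size alone called 5, the same 5 as at the unadjusted p, against 0.256% of all genes, and moved the median of all genes to -0.12. Leaving out UVB-hCOL3A1 3 gave a median of -0.48 with all 30 negative and 2 members under an unadjusted 0.05. That count was 2 without NoUVB 1, NoUVB 2 or UVB-hCOL3A1 1, 3 without NoUVB 3 or UVB-Saline 2, 6 without UVB-hCOL3A1 2 or UVB-Saline 1, and 8 without UVB-Saline 3. The share of all genes at that p is not given for these fits, so no change is read from the counts. Adjusted calls over all genes moved as well. They were 7 higher and 0 lower in the main fit, 120 and 24 without UVB-Saline 1, 180 and 62 without UVB-Saline 3, and 0 and 0 without UVB-hCOL3A1 2.

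**Figure D3:**
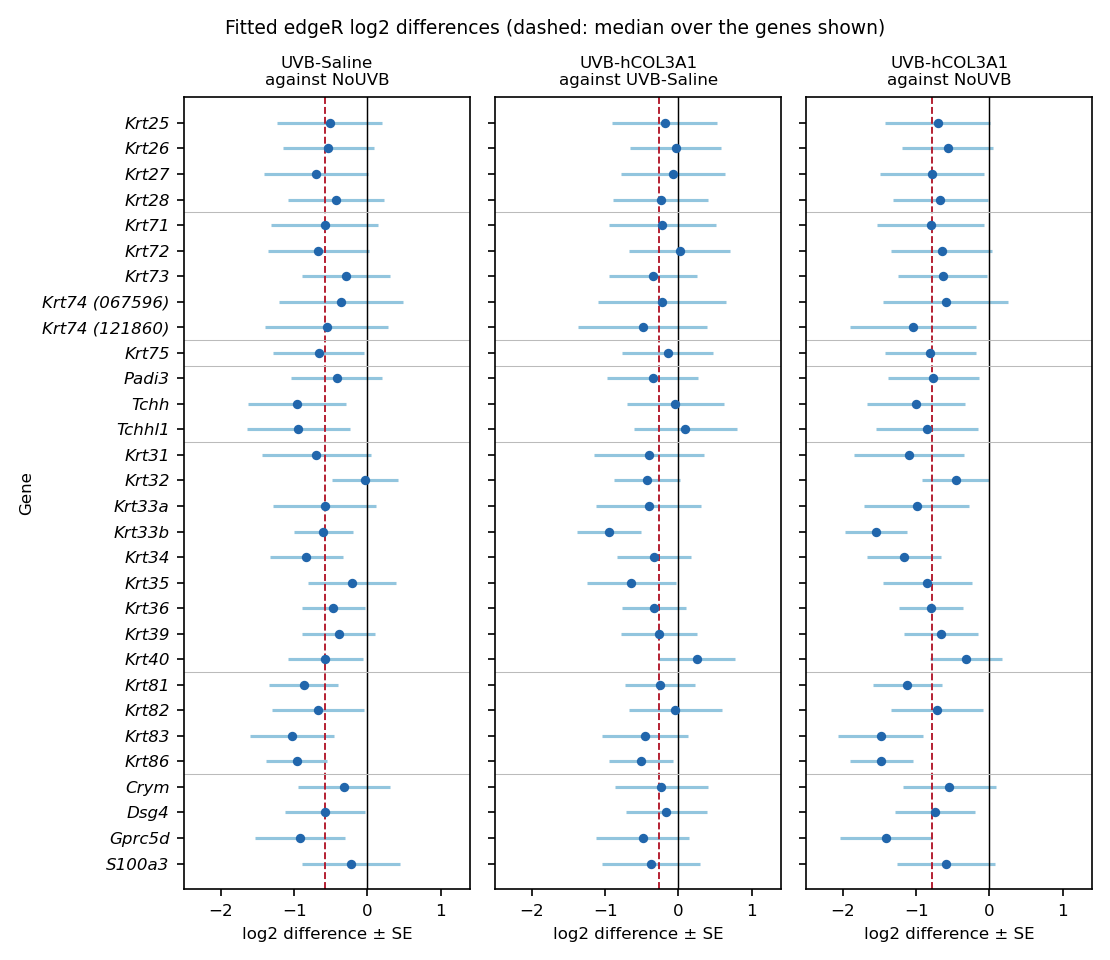
Fitted edgeR log2 difference of each tested gene with its standard error (horizontal bars), in 3 comparisons; the dashed line is the median over the genes shown, at -0.58, -0.26 and -0.79 from left to right. All points lie left of 0 in both comparisons with NoUVB. Most bars reach 0 or pass it in the left and middle panels, and some do in the right panel.

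The spread between libraries of a group was the main feature of these genes. The median SD of log2 CPM over the 30 rows was 0.758 in UVB-hCOL3A1, 1.39 in UVB-Saline and 0.361 in NoUVB, where the median gene had 0.195, 0.241 and 0.195. The highest library of a group exceeded the lowest by a median of 2.64-fold in UVB-hCOL3A1 (range 1.79 to 4.39), 6.41-fold in UVB-Saline (2.604 to 9.24) and 1.59-fold in NoUVB (1.22 to 2.17), over the 28 rows above 0 in every library. For all genes these medians were 1.302, 1.39 and 1.303. So the members varied far more than a typical gene in both irradiated groups, and less so in NoUVB.

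The pattern across libraries was shared. UVB-Saline 3 was the lowest of the 9 libraries in 22 of 30 rows, against 15.6% of all genes, and UVB-hCOL3A1 3 in 7, against 11.2%. In 27 of 30 rows (90.0%) these were the 2 lowest, against 7.55% of all genes. The highest library was NoUVB 1 in 15 rows and UVB-Saline 1 in 12. With both low libraries left out, the median was -0.19 between UVB-Saline and NoUVB (23 of 30 negative), -0.35 between UVB-hCOL3A1 and UVB-Saline (28 of 30) and -0.48 between UVB-hCOL3A1 and NoUVB (30 of 30). The groups were then lower without overlap in 2, 6 and 14 of 30 rows, where all genes gave 11.6%, 22.2% and 15.4%. The 6 between UVB-hCOL3A1 and UVB-Saline were Padi3, Krt32, Krt33b, Krt35, Krt36 and Gprc5d. The 2 and the 6 rows were smaller shares than those of all genes, so neither is read as a result about the members. For UVB-hCOL3A1 against NoUVB the set of 14 cannot change by this step, since the libraries left out set none of its limits.

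The keratin-associated proteins, which embed the hair keratins and are made late in the shaft, followed the same libraries. Of 58 Krtap genes, 30 were tested and none passed the test in any comparison (edgeR). Their median log2 difference was -0.93 between UVB-Saline and NoUVB (28 of 30 negative, 6 lower at an unadjusted p under 0.05, against 4.6% of all genes) and -0.29 between UVB-hCOL3A1 and UVB-Saline (22 negative, 1 lower, against 5.32%). Between UVB-hCOL3A1 and NoUVB it was -1.29, with 30 of 30 negative, 12 lower at an unadjusted p under 0.05 (all genes, 5.52%) and 19 lower without overlap (all genes, 10.7%). Between UVB-Saline and NoUVB, 9 of 30 (30.0%) were lower without overlap, against 6.61% of all genes. Between UVB-hCOL3A1 and UVB-Saline 1 was (3.33%), against 8.33%. The 3 Krtap genes named here are those with the smallest p over the comparisons, so they are not typical of the list. Krtap6-2 had 1.68, 2.73 and 0.86 CPM in UVB-hCOL3A1, 2.05, 0.99 and 0.98 CPM in UVB-Saline, and 6.39, 4.02 and 2.69 CPM in NoUVB. Krtap8-1 had 1.52, 2.54 and 1.51 CPM in UVB-hCOL3A1, 2.26, 4.69 and 1.63 CPM in UVB-Saline, and 3.83, 7.32 and 4.62 CPM in NoUVB. These genes rest on few counts, and Krtap4-13 was at or under 0.23 CPM in all UVB-hCOL3A1 libraries, against 1.443 to 2.56 CPM in NoUVB.

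The list of 24 follicle transcription and signalling genes had a median of -0.21 between UVB-Saline and NoUVB (17 negative), -0.24 between UVB-hCOL3A1 and UVB-Saline (19 negative) and -0.43 between UVB-hCOL3A1 and NoUVB (23 negative), and none passed. Foxn1, the factor named for the nude strain, had 11.3, 13.5 and 7.12 CPM in UVB-hCOL3A1, 22.4, 13.5 and 6.29 CPM in UVB-Saline, and 21.2, 21.3 and 14.0 CPM in NoUVB. Its UVB-hCOL3A1 libraries all lay below NoUVB, with a log2 difference of -0.81 ± 0.42 (edgeR adjusted p 0.495). Hoxc13, a homeobox factor that drives hair keratin genes, had 26.8, 26.2 and 14.6 CPM in UVB-hCOL3A1, 42.4, 18.8 and 6.61 CPM in UVB-Saline, and 32.5, 35.2 and 26.1 CPM in NoUVB. Lef1, the Wnt effector of the matrix and cortex, had 43.5, 43.7 and 16.8 CPM in UVB-hCOL3A1, 72.1, 34.9 and 19.1 CPM in UVB-Saline, and 54.4, 51.8 and 41.4 CPM in NoUVB. Msx2, a homeobox factor of the matrix, had 27.2, 30.2 and 11.3 CPM in UVB-hCOL3A1, 41.7, 19.6 and 6.18 CPM in UVB-Saline, and 37.2, 40.7 and 27.0 CPM in NoUVB. Hoxc13, Lef1 and Msx2 thus had their lowest level in UVB-Saline 3 or UVB-hCOL3A1 3 and their highest in UVB-Saline 1, like many of the keratins. Gata3, required for the inner root sheath, varied less, with 112, 102 and 93.5 CPM in UVB-hCOL3A1, 142, 133 and 92.6 CPM in UVB-Saline, and 162, 160 and 140 CPM in NoUVB. Its log2 difference between UVB-hCOL3A1 and NoUVB was -0.59 ± 0.15 (edgeR adjusted p 0.184).

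Markers of other skin cells did not all move with the keratins. Of 13 melanocyte markers, 12 were tested, and their median was -0.31 between UVB-Saline and NoUVB (10 negative) and -0.68 between UVB-hCOL3A1 and NoUVB (11 negative). Their summed level was 94.3 to 153 CPM in UVB-hCOL3A1, 66.5 to 244 CPM in UVB-Saline and 155 to 188 CPM in NoUVB, lowest in UVB-Saline 3 and highest in UVB-Saline 1. Gpr143 was at 0 in 3 libraries and no other melanocyte marker was at 0 in any. Outer root sheath and stem cell genes (14 of 14 tested) had a summed level of 2759 to 3770 CPM in UVB-hCOL3A1, 2701 to 7988 CPM in UVB-Saline and 2755 to 3078 CPM in NoUVB, highest in UVB-Saline 3 and UVB-hCOL3A1 3. In UVB-Saline 3 most of this sum came from Krt14, Krt16, Krt6a and Krt6b, keratins that epidermis can make as well, at 2296, 1443, 928 and 834 CPM. Krt15, Sox9 and Lhx2 of the same list were lowest of the 9 libraries in UVB-Saline 3, at 61.4, 26.9 and 7.37 CPM, so its members did not move together. Mitosis genes (15 of 15) had a median of 0.48 between UVB-Saline and NoUVB and 0.17 between UVB-hCOL3A1 and NoUVB, with sums of 456 to 589 CPM in UVB-hCOL3A1, 504 to 839 CPM in UVB-Saline and 502 to 573 CPM in NoUVB. Dermal papilla genes (14 of 14) had medians of 0.05 and -0.06 in these comparisons, and interfollicular epidermis genes (12 of 14 tested) 0.04 and -0.29. None of these genes passed the test in any comparison. The part of these cell types in the keratin result was not tested.

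**Figure D4:**
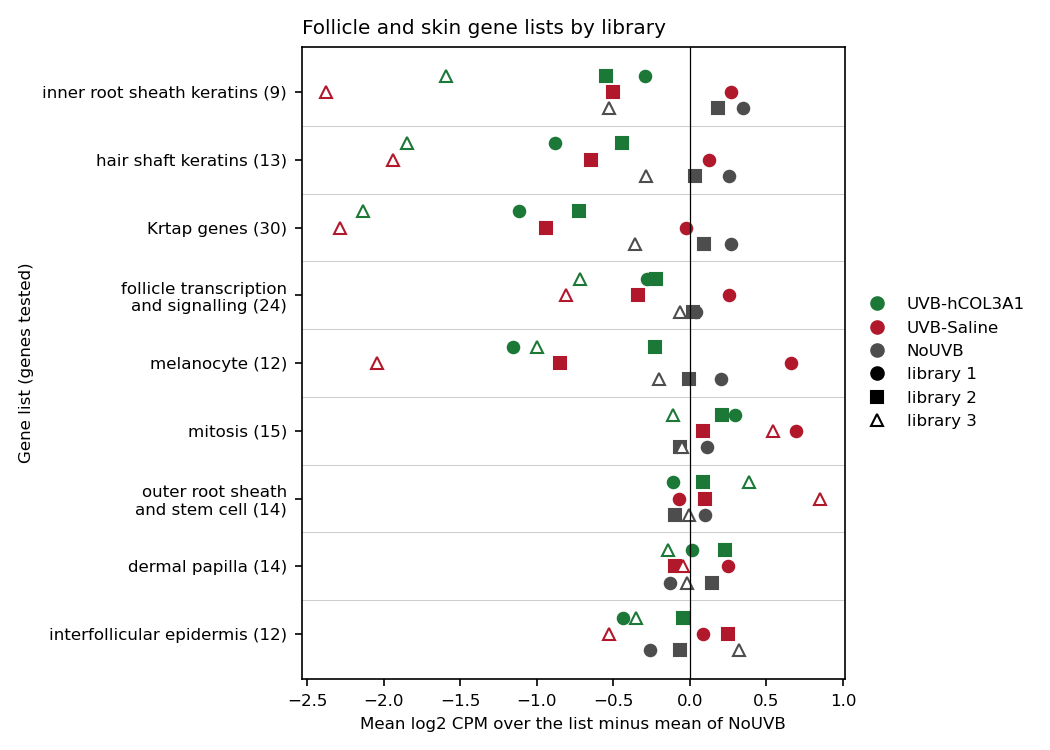
Mean log2 level of the tested genes of each list relative to the mean of the NoUVB libraries, 1 point per library; the number of genes is in brackets. Inner root sheath, shaft and Krtap genes spread together, with UVB-Saline 3 and UVB-hCOL3A1 3 at the low end (-2.37 and -1.59 for the sheath keratins), while the mean of the outer root sheath and stem cell genes is highest in those libraries (0.85 and 0.38, where the medians over its genes are 0.32 and 0.15).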

How the data were processed

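RNA was measured in 9 skin libraries, 3 per group, with groups and numbers taken from the titles. The authors deposited 1 table of estimated counts per gene. Per the submitters' processing notes, RSEM 1.3.3, STAR 2.7.11b, Bowtie2 2.5.4, fastp 0.23.4 and build GRCm39 were used. Neither their roles nor the annotation nor strandedness is stated, so a gene and its antisense or overlapping neighbour may share reads. Between 11.1% and 14.0% of values per library were not whole and were rounded. The 525 genes without a symbol held 0.0384% of counts and stayed in the totals.

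The test was that of edgeR 4.0.16 in R 4.3.3: filterByExpr, TMM scaling, and 1 robust quasi-likelihood fit over the 3 groups (residual degrees of freedom 6, common BCV 0.193), tested two-sided with Benjamini-Hochberg adjustment over 17168 genes at 0.05. The standard error is the log2 difference divided by the square root of the F statistic. CPM are TMM-scaled, and log2 CPM of lists and spreads have a prior count of 2. Alternatives used DESeq2 1.42.0 and limma 3.58.1. The steps were tested on simulated data. Within groups, libraries differed by a chi-square of 9.11 to 285 per degree of freedom, so none was a copy of another. These values include Rn18s-rs5, and the highest, 285 and 141, were those of NoUVB 2 with the other NoUVB libraries. Each library was counted as 1 replicate, but this check cannot show that libraries came from separate animals.

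The genes and lists, and the rule to give in every library the up to 4 most abundant members of each role, were chosen with earlier results of these data known. Lists are described by counts and medians. No genome of the counts' build was used, so promoters carry the coordinates of their own build.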

Additional observations from a re-analysis of the deposited data

How the results depend on the processing

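No count of members passing edgeR's adjusted threshold moved between UVB-Saline and NoUVB or between UVB-hCOL3A1 and UVB-Saline under any alternative. Between UVB-hCOL3A1 and NoUVB it was 0, and became 1 with DESeq2, 5 with scaling by library size alone and 2 with a fit to only the groups compared; the cause was not tested, and it stayed 0 under the others, including each library left out. Over the libraries left out in turn, the median member log2 difference ranged between -1.22 and -0.19 (UVB-Saline against NoUVB), -0.67 and 0.37 (UVB-hCOL3A1 against UVB-Saline), and -1.01 and -0.48 (UVB-hCOL3A1 against NoUVB). With limma voom these medians were -0.94, -0.0319 and -0.88. Among the 24 members given in every library, signs changed as follows, none past the threshold on either side. Without UVB-Saline 3 and UVB-hCOL3A1 3 together, the log2 difference between UVB-Saline and NoUVB became positive for Krt28 0.0182, Krt73 0.13, Padi3 0.0262, Krt35 0.20, S100a3 0.22 and Crym 0.13, and that between UVB-hCOL3A1 and UVB-Saline negative for Krt72 -0.12 and Tchhl1 -0.00354. With limma voom, the difference between UVB-hCOL3A1 and UVB-Saline was positive for Krt25 0.14, Krt27 0.30, Krt26 0.21, Krt71 0.0838, Krt74 ENSMUSG00000121860 0.61, Krt75 0.10, Tchh 0.26, Krt82 0.27, Dsg4 0.0556 and Crym 0.0245. With library size alone it was negative for Krt72 -0.10 and Tchhl1 -0.00674. With 1 library left out, the lowest to highest values were, for UVB-Saline against NoUVB, Krt28 -1.03 to 0.0175, Krt73 -0.90 to 0.13, Padi3 -1.06 to 0.0254, Krt35 -0.96 to 0.20, S100a3 -1.20 to 0.22 and Crym -0.91 to 0.13, and for UVB-hCOL3A1 against UVB-Saline, Krt25 -0.64 to 0.58, Krt27 -0.54 to 0.64, Krt28 -0.67 to 0.36, Krt26 -0.46 to 0.53, Krt71 -0.68 to 0.54, Krt73 -0.75 to 0.27, Krt72 -0.44 to 0.56, Krt74 ENSMUSG00000121860 -1.01 to 0.51, Krt75 -0.58 to 0.35, Tchh -0.49 to 0.53, Padi3 -0.78 to 0.29, Tchhl1 -0.34 to 1.08, Krt35 -1.03 to 0.11, Krt31 -0.86 to 0.27, Krt33a -0.85 to 0.49, Krt34 -0.70 to 0.11, Krt81 -0.61 to 0.13, Krt83 -0.87 to 0.019, Krt86 -0.92 to 0.00408, Krt82 -0.45 to 0.82, Dsg4 -0.55 to 0.49, S100a3 -0.80 to 0.60, Gprc5d -0.92 to 0.0783 and Crym -0.66 to 0.37. Among the other 6 tested rows, the difference between UVB-Saline and NoUVB became positive for Krt32 without NoUVB 1 (0.16), NoUVB 2 (0.0696), UVB-Saline 3 (0.31) or both low libraries (0.31), and for Krt74 ENSMUSG00000067596 without NoUVB 1 (0.20). That between UVB-hCOL3A1 and UVB-Saline became positive for Krt74 ENSMUSG00000067596 without UVB-Saline 3 (0.13), both low libraries (0.21) or UVB-hCOL3A1 2 (0.32) and for Krt39 without UVB-Saline 1 (0.45), and negative for Krt40 without UVB-hCOL3A1 2 (-0.15).

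Same-numbered libraries deviated together with correlations of 0.0181 to 0.41 over genes, not all over 0.1, so the numbers were not taken as pairing samples; UVB-hCOL3A1 2 correlated better with UVB-Saline 1 (0.257) than with UVB-Saline 2 (0.0459). The fit with the replicate number as a block called 0 members in each comparison, with medians of -0.87 (UVB-Saline against NoUVB), -0.20 (UVB-hCOL3A1 against UVB-Saline) and -0.89 (UVB-hCOL3A1 against NoUVB), and over all genes the calls numbered 21 higher and 40 lower, 60 and 14, and 89 and 29. Members at an unadjusted p under 0.05, in either direction, numbered 7, 1 and 10 with the block, in the same order. In the main fit they numbered 1, 0 and 5. The share of all genes at that p is not given for the block. Under the replicate block, the difference between UVB-hCOL3A1 and UVB-Saline was positive for Krt25 0.0577, Krt27 0.19, Krt26 0.10, Krt71 0.0059, Tchh 0.19 and Krt82 0.0848. Library 3 was the lowest of its group in 28 of 30 rows in UVB-hCOL3A1, 29 in UVB-Saline and 28 in NoUVB. Over all genes these shares were 34.8%, 36.6% and 33.1%.

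Over all genes, edgeR called 0 higher and 3 lower between UVB-Saline and NoUVB, 0 between UVB-hCOL3A1 and UVB-Saline, and 7 higher and 0 lower between UVB-hCOL3A1 and NoUVB. DESeq2 called 36 higher and 64 lower, 125 higher and 48 lower, and 181 higher and 88 lower, while without the filter on low counts edgeR called 21 higher and 52 lower, 74 higher and 32 lower, and 107 higher and 71 lower, in the same order. Between UVB-hCOL3A1 and NoUVB, library size alone gave 115 higher and 44 lower and the fit to only the groups compared 283 higher and 124 lower. Depth limits Krt39, Krt40, Krt74 and the Krtap genes, which rest on few counts per library.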

Other observations

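Lists of cell types outside the follicle and of its gland gave the following values, with none of their genes past edgeR's adjusted threshold in any comparison. Adipocyte genes (10 of 10 tested) had a median log2 difference of -1.03 between UVB-Saline and NoUVB, with 10 of 10 negative, and 0.99 between UVB-hCOL3A1 and UVB-Saline, with 0 of 10 negative. Between UVB-hCOL3A1 and NoUVB it was -0.03. Their summed level was 1016 to 1704 CPM in UVB-hCOL3A1, 597 to 874 CPM in UVB-Saline and 799 to 1981 CPM in NoUVB. Leptin (Lep), the hormone of fat cells, had 8.01, 13.5 and 5.51 CPM in UVB-hCOL3A1, 2.98, 2.96 and 6.94 CPM in UVB-Saline, and 12.9, 28.8 and 13.4 CPM in NoUVB. Lep was among the 3 genes of this list with the smallest p. The order of the libraries was thus another than for the keratins: UVB-Saline 1, among the highest in keratins, had the lowest adipocyte sum.

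Skeletal muscle genes (10 of 10 tested) had medians of -0.18 between UVB-Saline and NoUVB, 1.16 between UVB-hCOL3A1 and UVB-Saline and 0.98 between UVB-hCOL3A1 and NoUVB, and their sum ranged over 3518 to 5282 CPM in UVB-hCOL3A1, 817 to 3306 CPM in UVB-Saline and 1353 to 4221 CPM in NoUVB. Immune cell genes (13 of 13) had medians of 0.17 and 0.38 in the same comparisons and 0.55 between UVB-hCOL3A1 and NoUVB, with sums of 560 to 793 CPM in UVB-hCOL3A1, 250 to 698 CPM in UVB-Saline and 373 to 476 CPM in NoUVB. Sebaceous gland genes (11 of 12 tested) had medians of 0.20, 0.06 and 0.42 in those 3 comparisons.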
